A study of Rattus norvegicus with 10 samples.

Results

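Rat oligodendrocytes (OLs) transfected with a mimic of miR-145 were compared here with OLs transfected with a scrambled mimic (miR-ctl). The samples were chosen by their labels and are 4 of the 10 RNA sequencing libraries of the series, with 2 libraries in each of the 2 groups. The study asks what miR-145 does in cells that form myelin. Genes on lists of myelin, OL differentiation and Wnt signalling were left out of the ranking so that other functions could be read. Oligodendrocyte progenitors (OPCs) were shaken off mixed glial cultures made from the cortices of Sprague-Dawley pups at P1 to P3, depleted of adhering cells, and differentiated with thyroid hormone and ciliary neurotrophic factor. The first group received the miR-145-5p mimic at 30 nM and the second received the scrambled mimic at 30 nM, both with the lipid reagent INTERFERin, and RNA was taken 5 days later on differentiation day 5 (DD5). The labels and methods give both groups the same cells, dose, reagent and times. As a model these are primary cells of a dish with no axons, enriched for but not sorted as OLs, and they carry an introduced small RNA. A method note of the study speaks of lentivirus, while the labels and the results name mimics, and a tag on the miR-145 libraries also names miR-219, while their titles name miR-145 alone. The labels number the replicates without saying what separates them. The study's reporting summary calls every N biological and, for primary cells, equates it with a single mouse, while these cells are from rats. The p-values are therefore read here only against the spread between these samples.

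A microRNA guides an Argonaute protein to messenger RNAs whose 3′ untranslated regions pair with its seed, and the bound messenger is usually destabilised or less translated. In many tissues miR-145 is best known from smooth muscle and other mesenchymal cells, where it marks the contractile state. A culture of maturing OLs made by shaking glia off a bed of astrocytes can also hold astrocytes and microglia, and messenger RNA from all of them is counted together. The agent that separates the groups carries the mature sequence given by RefSeq for the rat (GRCr8), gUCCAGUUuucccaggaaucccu, with bases 2 to 8, the seed, in capitals. Sites for this seed in transcripts were not analysed here.

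Estimated counts of the miR-145 replicates summed to 36375353 and 40386349, and those of the miR-ctl replicates to 40670311 and 33505668. Levels are counts scaled by TMM to a common library size (CPM), and log2 fold changes compare miR-145 with miR-ctl. Of 15461 genes tested, edgeR called 0 (0%) at an adjusted p under 0.05, with 0.158 as the smallest value. Unadjusted, 2067 genes (13.4%) had an edgeR p under 0.05, of which 1390 were higher and 677 lower with miR-145, and the count was 1289 without replicate 1 of miR-ctl. A gene is described as apart where both libraries of a group lie beyond both libraries of the other. By that count 3544 genes (22.9%) were apart and higher with miR-145, and 3767 (24.4%) were apart and lower. Counts of genes apart in the lists below are to be read beside these shares. DESeq2 on the same libraries called 535 genes (3.46%) higher and 114 (0.737%) lower, and each of these 649 genes was apart in its called direction. Among DESeq2's calls the log2 fold change went beyond 1 for 237 of the higher genes and beyond -1 for 29 of the lower genes. DESeq2's calls moved with each library: 163 higher and 36 lower without replicate 1 of miR-145, 287 and 47 without replicate 2 of miR-145, 184 and 10 without replicate 1 of miR-ctl, and 193 and 84 without replicate 2 of miR-ctl. Of the 649 genes these fits called 121, 253, 162 and 187 again, in the same order. An edgeR fit that shared its spread over the 5 groups of the series called 79 genes, 64 higher and 15 lower. Over all genes tested the log2 fold change had a median of -0.01, and it was -0.02 without replicate 2 of miR-145 and 0.00 without either miR-ctl library.

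Markers were read first. The 15 markers of maturing OLs summed to 17643 and 27913 CPM with miR-145 and to 19697 and 35046 CPM with miR-ctl. Both replicate 2 libraries lay above both replicate 1 libraries, and the groups overlapped. Within each replicate number the miR-145 sum was below the miR-ctl sum. The labels do not say that these numbers mark a shared culture. Mbp, the most abundant of them by CPM, was at 6216 and 10672 CPM with miR-145 and at 6218 and 13123 CPM with miR-ctl. None of the 15 was at 0, 5 were apart and lower, 1 was apart and higher (Mal), and DESeq2 called 0. Their median log2 fold change was -0.23, but it was 0.08 without replicate 1 of miR-145, -0.57 without replicate 2 of miR-145, -0.47 without replicate 1 of miR-ctl and 0.35 without replicate 2 of miR-ctl. The 12 OPC markers tested summed to 3824 and 3470 CPM with miR-145 and to 5231 and 3352 CPM with miR-ctl. By that sum the groups overlapped. Of the 12, 7 were apart and lower and 0 apart and higher. Their median of -0.38 was -0.09 without replicate 1 of miR-ctl and -0.63 without replicate 2 of miR-ctl. Gpr17, a receptor of OLs that have just begun to differentiate, was at 208 and 183 CPM with miR-145 and at 375 and 265 CPM with miR-ctl. Its groups did not overlap, and it was the only OPC marker that DESeq2 called (adjusted p of 0.0406, log2 fold change of -0.70, which was -0.43 without replicate 1 of miR-ctl). All 4 libraries carried the OL markers that go with their labels.

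Astrocyte markers stood out beside them. The 20 astrocyte genes summed to 24005 and 18688 CPM with miR-145 and to 12143 and 12485 CPM with miR-ctl, so each miR-145 library lay above each miR-ctl library. Of the 20, 16 were apart and higher and 0 were apart and lower, DESeq2 called 13 higher, and the median log2 fold change was 0.90, against -0.01 over all genes. Gfap, the intermediate filament of astrocytes and the most abundant gene of the list by CPM, was at 9676 and 6713 CPM with miR-145 and at 4795 and 4173 CPM with miR-ctl (log2 fold change of 0.88, standard error 0.23). Its miR-145 libraries were both high, replicate 1 most of all, and DESeq2 called it (adjusted p of 0.00478). Aqp4, the water channel of astrocyte endfeet, was at 432 and 342 CPM with miR-145 and at 168 and 186 CPM with miR-ctl. Sox9, a transcription factor of astrocytes, was at 75.9 and 67.1 CPM against 39.1 and 34.8 CPM. Both genes were apart and higher, as was Fabp7, a fatty acid binding protein of radial glia and astrocytes, at 1433 and 1163 CPM against 661 and 607 CPM. The 4 astrocyte markers whose groups overlapped were Gjb6, Fgfr3, Slc7a10 and Glul, and none of the 20 was at 0. A list of 12 intermediate filament and astrocyte structural genes, which also holds Gfap, had 6 apart and higher and 2 apart and lower with 1 DESeq2 call (Gfap), and its median of 0.39 was 0.05 without replicate 2 of miR-145. Other lists used here also hold 11 of the 20, and Fabp7, S100b, Clu and Glul are made by other glia as well. Fewer or more cells of a type and less or more RNA per cell cannot be told apart in these libraries. These markers were higher with the mimic, and the part that astrocyte RNA plays in the genes described next was not tested.

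The 20 microglia and macrophage markers summed to 757 and 1672 CPM with miR-145 and to 704 and 987 CPM with miR-ctl, and C1qa, the most abundant by CPM, overlapped between the groups. Replicate 2 of miR-145 was the high library: the list's median log2 fold change of 0.59 was 0.01 without it and 1.01 without replicate 1 of miR-145. Of the 20, 5 (25.0%, beside 22.9% over all genes) were apart and higher and 1 was apart and lower. Cx3cr1, the fractalkine receptor of microglia, was higher at 12.4 and 24.8 CPM against 4.95 and 5.00 CPM, and it was the list's single DESeq2 call. The lower one was Cd74, at 0.029 and 0.076 CPM against 0.65 and 0.34 CPM. The 14 fibroblast, meningeal and mural markers tested summed to 86.2 and 188 CPM with miR-145 and to 55.2 and 39.9 CPM with miR-ctl, with 11 apart and higher and 0 apart and lower. Their median of 1.24 was 0.76 without replicate 2 of miR-145, and Fn1, the most abundant by CPM, was at 19.0 and 78.2 CPM against 14.1 and 9.01 CPM (log2 fold change of 2.08, which was 0.72 without replicate 2 of miR-145). Endothelial markers gave no single direction: of 9 tested, 4 were apart and higher and 2 apart and lower, and the median of 0.44 was 0.22 without replicate 2 of miR-ctl. Kdr, a receptor for vascular endothelial growth factor and the most abundant of them by CPM, was their only DESeq2 call and was lower at 9.06 and 5.23 CPM against 20.1 and 14.3 CPM. Of 11 Schwann cell markers 9 had negative log2 fold changes, 1 was apart and higher (Fabp7) and 1 apart and lower (Sox10), and DESeq2 called both. Their median of -0.38 was -0.08 without replicate 1 of miR-145, -0.73 without replicate 2 of miR-145, -0.63 without replicate 1 of miR-ctl and 0.13 without replicate 2 of miR-ctl. Neuronal markers summed to 658 and 630 CPM against 714 and 592 CPM, and ependymal markers to 14.5 and 15.6 CPM against 12.4 and 11.1 CPM. The part of any of these cell types in the results was not tested.

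**Figure D1:**
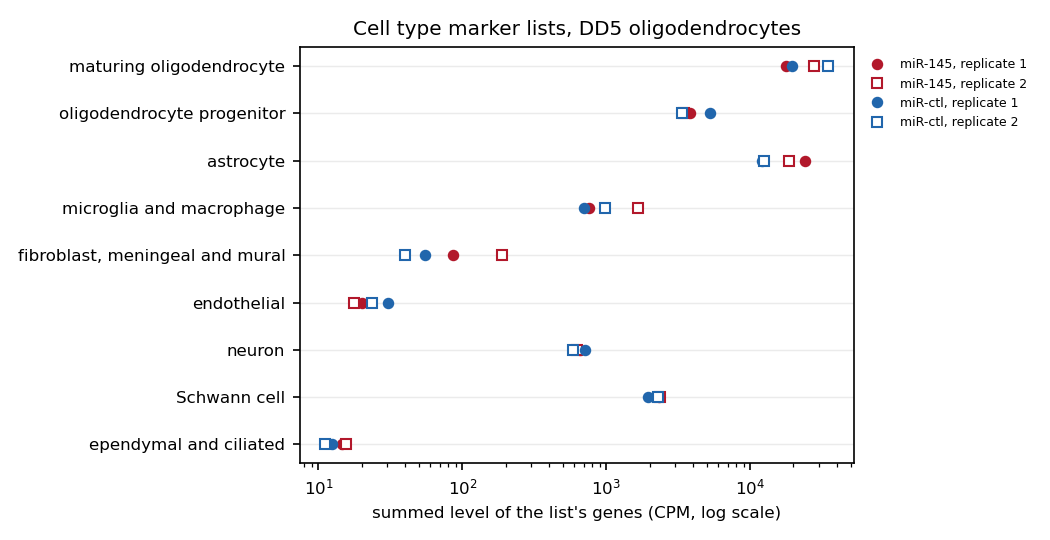
Summed level in CPM (log scale) of each cell type marker list in the 4 OL libraries, with filled circles for replicate 1 and open squares for replicate 2. Astrocyte markers sum to 24005 and 18688 CPM with miR-145 and to 12143 and 12485 CPM with miR-ctl. Maturing OL markers overlap between the groups, though within each replicate number they are lower with miR-145.

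The 15 higher genes of smallest p among genes apart had log2 fold changes of 0.91 to 2.51, each with an edgeR adjusted p of 0.158. DESeq2 called each of them and the fit over 5 groups called 11. The genes were chosen by p in the same libraries, so these calls are no separate test. Ranking by p also favours close replicates, and genes apart have separate groups by definition. DESeq2's calls rest on all 4 libraries: of the 38 genes named by p or by size it called 36, but 24 without replicate 1 of miR-145, 25 without replicate 2 of miR-145, 18 without replicate 1 of miR-ctl and 24 without replicate 2 of miR-ctl. Megf10 (ENSRNOG00000013674), a receptor with which astrocytes engulf synapses and dying cells, was at 149 and 141 CPM with miR-145 and at 59.3 and 55.7 CPM with miR-ctl, and the log2 fold change was 1.34 (standard error 0.11, 2 libraries per group). Replicates lay close together and the groups far apart. Mertk (ENSRNOG00000017319), a receptor tyrosine kinase that recognises phosphatidylserine on dying cells through bridging proteins, was at 83.7 and 77.6 CPM against 33.8 and 36.6 CPM, a log2 fold change of 1.20 (standard error 0.11). Both miR-145 libraries were again above both controls. Ssc5d (ENSRNOG00000016687), a secreted protein with scavenger receptor domains, was at 103 and 107 CPM with miR-145 and at 49.4 and 46.6 CPM with miR-ctl (log2 fold change of 1.14, standard error 0.11). Hmox1, the haem oxygenase that breaks haem into iron, carbon monoxide and biliverdin, was at 339 and 292 CPM against 127 and 136 CPM (log2 fold change of 1.27, standard error 0.13). For both of these genes the replicates of a group differed far less than the groups did.

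Mlc1 (ENSRNOG00000032871), a membrane protein of astrocyte endfeet that is mutated in a leukoencephalopathy with large brain, was at 608 and 474 CPM with miR-145 and at 176 and 198 CPM with miR-ctl, and the log2 fold change was 1.54 (standard error 0.17). Dmd, the dystrophin gene, whose short products anchor channels at glial membranes, was at 68.5 and 56.6 CPM against 26.5 and 25.1 CPM. Mmp14, a membrane-bound metalloproteinase that activates other matrix proteases, was at 178 and 135 CPM against 52.1 and 50.3 CPM, a log2 fold change of 1.61 (standard error 0.16). Replicate 1 of miR-145 was the highest library for each of these 3 genes, and replicate 2 was still well above both controls. Efemp1, a fibulin of elastic matrix, was at 4.54 and 5.74 CPM with miR-145 and at 0.828 and 0.981 CPM with miR-ctl, and its log2 fold change of 2.51 (standard error 0.29) was the largest of the 15. Lamb2, a laminin beta chain of basement membranes, was at 110 and 118 CPM against 59.7 and 62.2 CPM (log2 fold change of 0.91, standard error 0.11). Cd24, a small sialoglycoprotein of the cell surface, was at 20.0 and 14.5 CPM with miR-145 and at 5.00 and 4.69 CPM with miR-ctl. Their control libraries lay close to each other and below both miR-145 libraries.

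Gabra2, Rab11fip5, Pld2, Ndrg4 and Cachd1 complete the 15. Gabra2, a subunit of the ionotropic receptor for GABA, was at 59.6 and 46.7 CPM with miR-145 and at 20.9 and 18.7 CPM with miR-ctl (log2 fold change of 1.43, standard error 0.16). Rab11fip5, which links the small GTPase Rab11 to recycling endosomes, was at 61.7 and 57.0 CPM against 24.9 and 21.5 CPM (log2 fold change of 1.36, standard error 0.13). Pld2, a phospholipase that makes phosphatidic acid, was at 29.8 and 28.7 CPM against 12.6 and 13.9 CPM. Each was apart by more than the spread of its replicates. Ndrg4, a cytoplasmic protein of brain and heart, was at 278 and 246 CPM with miR-145 and at 107 and 112 CPM with miR-ctl (log2 fold change of 1.27, standard error 0.12). Cachd1, a modulator of voltage-gated calcium channels, was at 45.4 and 44.3 CPM against 23.5 and 21.7 CPM (log2 fold change of 0.99, standard error 0.12). In both genes the replicates of a group lay close together.

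Genes ranked by size of change were apart, had an unadjusted edgeR p under 0.05, and reached 1 CPM in both libraries of the higher group. Fibrillar collagens led the higher genes of that ranking. Their changes were smaller without replicate 2 of miR-145. Col3a1 was at 3.05 and 29.9 CPM with miR-145 and at 0.126 and 0.797 CPM with miR-ctl, and the log2 fold change was 5.22 (standard error 1.35, 0.218 as edgeR's adjusted p), or 2.76 without replicate 2 of miR-145. Col1a1 was at 1.75 and 16.4 CPM against 0.929 and 1.17 CPM, and its log2 fold change of 3.13 was 0.75 without replicate 2 of miR-145. In both collagens replicate 2 of miR-145 stood far above the other 3 libraries. The next 3 genes by size were enzymes, high in both miR-145 libraries. Dhrs9, a dehydrogenase of retinol and steroids, was at 4.74 and 7.40 CPM with miR-145 and at 0.577 and 0.828 CPM with miR-ctl (log2 fold change of 3.12, standard error 0.37). Acss3, a mitochondrial ligase that activates short fatty acids, was at 3.94 and 3.18 CPM against 0.326 and 0.552 CPM. Cyp4f1, a fatty acid hydroxylase, was at 2.82 and 1.72 CPM against 0.276 and 0.399 CPM. DESeq2 called these 3 enzymes and Col3a1 (adjusted p of 0.0479) but not Col1a1 (adjusted p of 0.224).

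**Figure D2:**
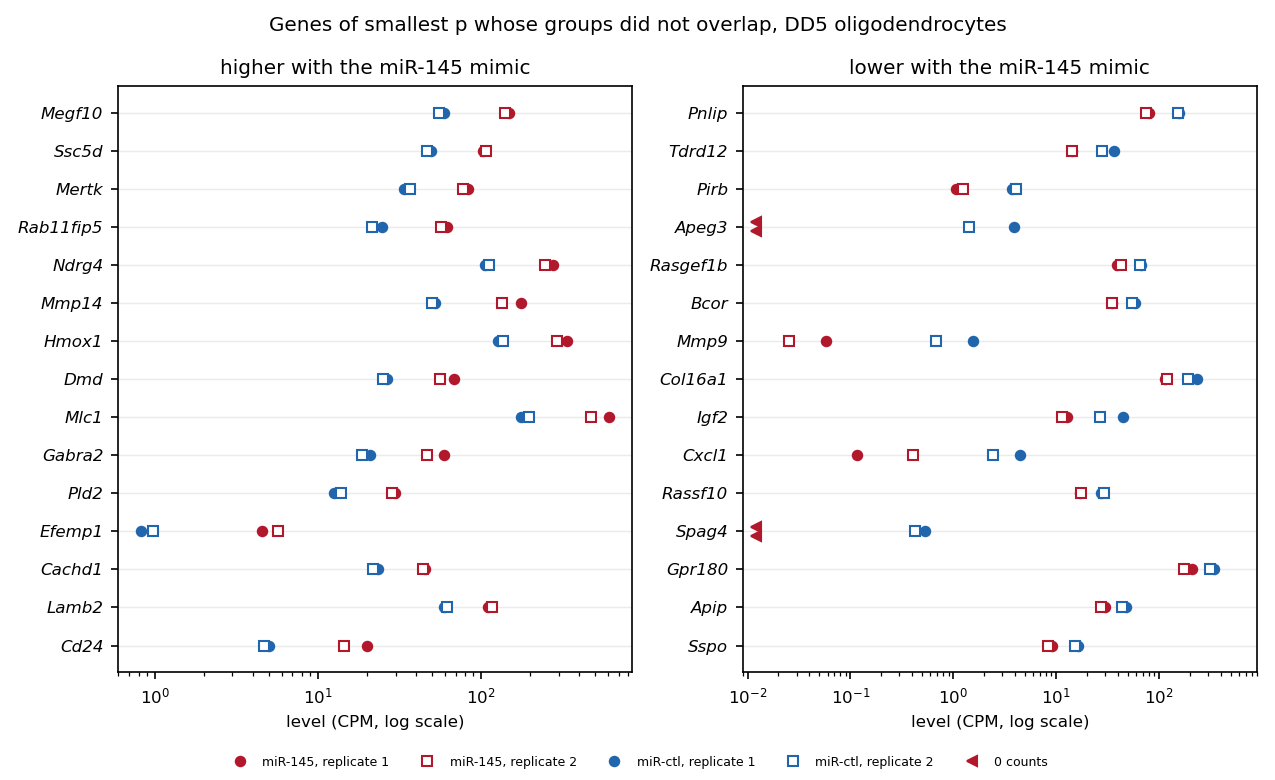
Level in CPM (log scale) of the 15 higher and the 15 lower genes of smallest p among genes apart, with filled circles for replicate 1, open squares for replicate 2 and triangles at the left edge for libraries with 0 counts. Replicates lie close together for most genes, as for Megf10 at 149 and 141 CPM against 59.3 and 55.7 CPM. Ranking by p among genes apart favours such genes, so this is no separate result.

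Beyond the top of the ranking, lists of calcium-binding proteins and channels also held more genes apart and higher than apart and lower. Of 9 S100 genes, which encode small calcium-binding proteins, 6 were apart and higher and 0 apart and lower, DESeq2 called 5, and the median log2 fold change was 1.18. S100a16 was at 65.5 and 31.8 CPM with miR-145 and at 9.64 and 10.9 CPM with miR-ctl. S100b was at 1397 and 959 CPM against 524 and 520 CPM. Replicate 1 of miR-145 was the highest library for both, and the S100 median was 0.66 without replicate 2 of miR-145. Among 63 potassium channel genes 26 were apart and higher and 11 apart and lower, with 5 and 1 called by DESeq2 and a median of 0.33. Kcnj16, an inward rectifier of glia, was at 35.3 and 19.6 CPM against 8.11 and 5.52 CPM. Kcnn2, a calcium-activated channel, was at 21.1 and 16.8 CPM against 9.11 and 7.88 CPM. Both were above both controls in each miR-145 library. The accessory subunit Kcne5 was at 2.65 and 1.14 CPM against 0.326 and 0.276 CPM.

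Of 272 solute carriers tested, 84 (30.9%, beside 22.9% over all genes) were apart and higher and 37 (13.6%, beside 24.4%) apart and lower. DESeq2 called 20 higher and 3 lower, and the median was 0.11. Slc14a1, a urea transporter, was at 428 and 347 CPM with miR-145 and at 166 and 171 CPM with miR-ctl, and the log2 fold change was 1.20 (standard error 0.14). Slc4a4, which moves sodium and bicarbonate together and is also an astrocyte marker, was at 316 and 205 CPM against 92.5 and 63.7 CPM. Both were apart and called by DESeq2. Slc39a12, a zinc importer, was at 107 and 107 CPM against 49.8 and 62.7 CPM. Slc25a29, a mitochondrial carrier of basic amino acids, was at 42.2 and 39.1 CPM against 21.9 and 23.2 CPM. These carriers were apart too. Among 35 glutamate and GABA receptor genes 14 were apart and higher and 4 apart and lower, with 6 DESeq2 calls, all higher, and a median of 0.31 that was 0.20 without replicate 1 of miR-145 and 0.59 without replicate 1 of miR-ctl. Gria1, a subunit of AMPA receptors, was at 23.8 and 18.3 CPM against 6.10 and 7.70 CPM (log2 fold change of 1.62). Gabbr1, a subunit of the metabotropic GABA receptor, was at 718 and 555 CPM against 389 and 360 CPM. Each miR-145 library again lay above each control.

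Of 31 phagocytic receptors and bridging proteins, 16 were apart and higher and 2 apart and lower, DESeq2 called 6 higher and 0 lower, and the median was 0.46, or 0.23 without replicate 2 of miR-145. Axl, another receptor kinase for bound phosphatidylserine, was at 118 and 139 CPM with miR-145 and at 68.3 and 71.2 CPM with miR-ctl. Gulp1, an adaptor that binds the tail of engulfment receptors, was at 6.41 and 4.78 CPM against 2.18 and 2.18 CPM. Both were apart and called by DESeq2. Among 31 complement and coagulation genes 10 were apart and higher and 1 apart and lower, 3 were DESeq2 calls, and the median of 0.48 was 0.11 without replicate 2 of miR-145 and 0.73 without replicate 1 of miR-145. Cd59, an inhibitor of the complement membrane attack complex, was at 91.4 and 57.1 CPM against 23.6 and 25.6 CPM. Clu, the secreted chaperone clusterin, was at 752 and 615 CPM against 358 and 381 CPM. F3, the tissue factor that starts coagulation, was at 240 and 172 CPM against 127 and 97.1 CPM. All 3 were among the DESeq2 calls. The 56 lysosomal genes had 18 apart and higher and 7 apart and lower with 1 DESeq2 call, the protease gene Ctsh at 143 and 123 CPM against 62.6 and 69.4 CPM, and their median of 0.13 was 0.07 without replicate 2 of miR-145 and 0.06 without replicate 1 of miR-ctl.

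Of 45 targets of the transcription factor NRF2 and redox enzymes, 24 were apart and higher and 4 apart and lower, DESeq2 called 9 higher and 0 lower, and the median was 0.37, or 0.24 without replicate 1 of miR-145. Mgst1, a membrane-bound glutathione transferase, was at 19.9 and 17.6 CPM with miR-145 and at 6.53 and 7.57 CPM with miR-ctl (log2 fold change of 1.42, standard error 0.17). Prdx6, a peroxidase that also acts on phospholipids, was at 429 and 263 CPM against 139 and 149 CPM. Gstm1, a cytosolic glutathione transferase, was at 88.3 and 66.7 CPM against 41.9 and 40.1 CPM. Replicate 1 of miR-145 was the highest library for each. The 22 metallothionein and metal handling genes had 11 apart and higher and 0 apart and lower with 5 DESeq2 calls, and a median of 0.22 that was 0.41 without replicate 1 of miR-145 and 0.46 without replicate 2 of miR-ctl. Of these 22 genes 10 are also in other lists. Mt3, the metallothionein of the brain, was at 878 and 539 CPM against 306 and 252 CPM. Mt2A was at 416 and 250 CPM against 142 and 111 CPM. Fth1, the heavy chain of the iron store ferritin, was at 2298 and 2030 CPM against 1393 and 1313 CPM. These 3 were apart and called by DESeq2. Among 28 heat shock genes 12 were apart and higher and 7 apart and lower, around a median of 0.07 that was -0.01 without replicate 1 of miR-145, 0.03 without replicate 1 of miR-ctl and 0.11 without replicate 2 of miR-ctl. The 3 that DESeq2 called were small heat shock proteins or a partner of theirs: Hspb8, its partner Bag3, and Hspb6. Hspb8 was at 35.7 and 29.2 CPM against 12.8 and 14.5 CPM. Bag3 was at 81.9 and 75.7 CPM against 42.5 and 47.0 CPM.

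Of 28 glycolysis genes, 21 were apart and higher and 1 was apart and lower, DESeq2 called 6 higher, and the median was 0.42. Pdk1, a kinase that holds pyruvate back from mitochondria, was at 19.0 and 17.0 CPM with miR-145 and at 9.19 and 9.29 CPM with miR-ctl. Ldhb, a lactate dehydrogenase subunit, was at 540 and 352 CPM against 259 and 250 CPM (log2 fold change of 0.81, which was 0.48 without replicate 1 of miR-145). Pfkfb3, which makes an activator of glycolysis, was at 446 and 449 CPM against 338 and 317 CPM. All 3 were apart and called by DESeq2. Of 85 respiratory chain and ATP synthase genes, 10 were apart and higher and 6 apart and lower, DESeq2 called 0, and the median of 0.06 was -0.12 without replicate 1 of miR-145 and 0.23 without replicate 2 of miR-145. Among 74 genes of fatty acid and sphingolipid metabolism 31 were apart and higher and 10 apart and lower with 7 DESeq2 calls, all higher, and a median of 0.15. Elovl2, an elongase of long polyunsaturated fatty acids, was at 82.6 and 46.6 CPM against 18.1 and 17.6 CPM (log2 fold change of 1.86, standard error 0.28). Acsbg1, an acyl-CoA synthetase, was at 868 and 570 CPM against 332 and 290 CPM. Acacb, an acetyl-CoA carboxylase, was at 5.98 and 3.82 CPM against 1.31 and 1.35 CPM. Of 33 genes of cholesterol synthesis, 28 had negative log2 fold changes, beside 7973 of the 15461 genes tested, and 10 (30.3%, beside 24.4%) were apart and lower and 4 apart and higher. Their median was -0.30, ranging from -0.16 without replicate 1 of miR-ctl to -0.50 without replicate 2 of miR-ctl and reaching -0.48 without replicate 1 of miR-145. DESeq2 called 0 of them lower and 1 higher, Srebf1, a regulator of lipid synthesis genes, at 117 and 123 CPM against 79.6 and 70.7 CPM.

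Of 54 matrix glycoproteins and laminins, 28 were apart and higher and 5 apart and lower, DESeq2 called 11 higher and 0 lower, and the median was 0.53, or 0.32 without replicate 2 of miR-145. Lama5, a laminin alpha chain, was at 80.4 and 78.8 CPM with miR-145 and at 40.3 and 29.4 CPM with miR-ctl. Igfbp5, a matrix-bound protein that holds insulin-like growth factors, was at 60.9 and 70.8 CPM against 27.0 and 33.4 CPM. Both were apart with close miR-145 replicates. Among 30 collagens 11 were apart and higher and 6 apart and lower, with 4 DESeq2 calls higher and 2 lower, and the median of 0.22 was 0.01 without replicate 2 of miR-145, 0.36 without replicate 1 of miR-145 and 0.58 without replicate 1 of miR-ctl. The collagens of smallest p had miR-145 replicates closer together than Col1a1 and Col3a1 did, which ranking by p itself favours. Col18a1, a basement membrane collagen, was at 6.44 and 7.81 CPM against 1.98 and 1.41 CPM. Col4a5, a chain of the basement membrane network, was at 8.34 and 8.21 CPM against 2.06 and 2.79 CPM. Col5a2 was at 34.8 and 40.0 CPM against 19.7 and 18.6 CPM. These 3 were apart and higher. Col16a1, a collagen that sits on the surface of fibrils, was lower at 115 and 121 CPM against 237 and 191 CPM.

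Of 31 proteoglycan and hyaluronan genes, 16 were apart and higher and 2 apart and lower, DESeq2 called 5 higher and 1 lower, and the median was 0.46, ranging from 0.28 without replicate 2 of miR-ctl to 0.76 without replicate 1 of miR-ctl. Sdc4, a syndecan of cell adhesions, was at 85.3 and 65.0 CPM with miR-145 and at 38.2 and 36.2 CPM with miR-ctl. Gpc4, a glypican that astrocytes secrete, was at 7.30 and 6.22 CPM against 3.06 and 2.21 CPM. Bgn, the small proteoglycan biglycan, was at 8.11 and 11.3 CPM against 4.62 and 4.05 CPM. These 3 were apart and higher. The DESeq2 call in the other direction was Has2, a synthase of hyaluronan, at 1.64 and 1.31 CPM against 7.28 and 3.86 CPM (log2 fold change of -1.91, standard error 0.39). Among 41 matrix proteases and inhibitors 16 were apart and higher and 4 apart and lower with 5 and 1 DESeq2 calls, and the median of 0.27 was 0.09 without replicate 2 of miR-145 and 0.44 without replicate 1 of miR-145. Plat, the tissue plasminogen activator, was at 272 and 196 CPM against 124 and 118 CPM. Serpinh1, a chaperone of procollagen, was at 2.16 and 6.49 CPM against 0.577 and 0.889 CPM, a log2 fold change of 2.57 that was 1.56 without replicate 2 of miR-145. Both were apart. The 36 cadherin and tight junction genes had 17 apart and higher and 1 apart and lower with 4 DESeq2 calls, among them Cdh11 at 77.0 and 66.7 CPM against 47.5 and 47.6 CPM, and their median of 0.32 was 0.54 without replicate 1 of miR-ctl. The 19 integrins had 9 apart and higher and 2 apart and lower with 0 DESeq2 calls and a median of 0.39, which was 0.12 without replicate 2 of miR-145 and 0.62 without replicate 1 of miR-145. Of 8 annexins 5 were apart and higher and 0 apart and lower, with 2 DESeq2 calls, and their median of 0.49 was 0.32 without replicate 2 of miR-145. Anxa3 was at 63.8 and 141 CPM against 28.4 and 38.3 CPM, and its log2 fold change of 1.63 was 0.94 without replicate 2 of miR-145.

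**Figure D3:**
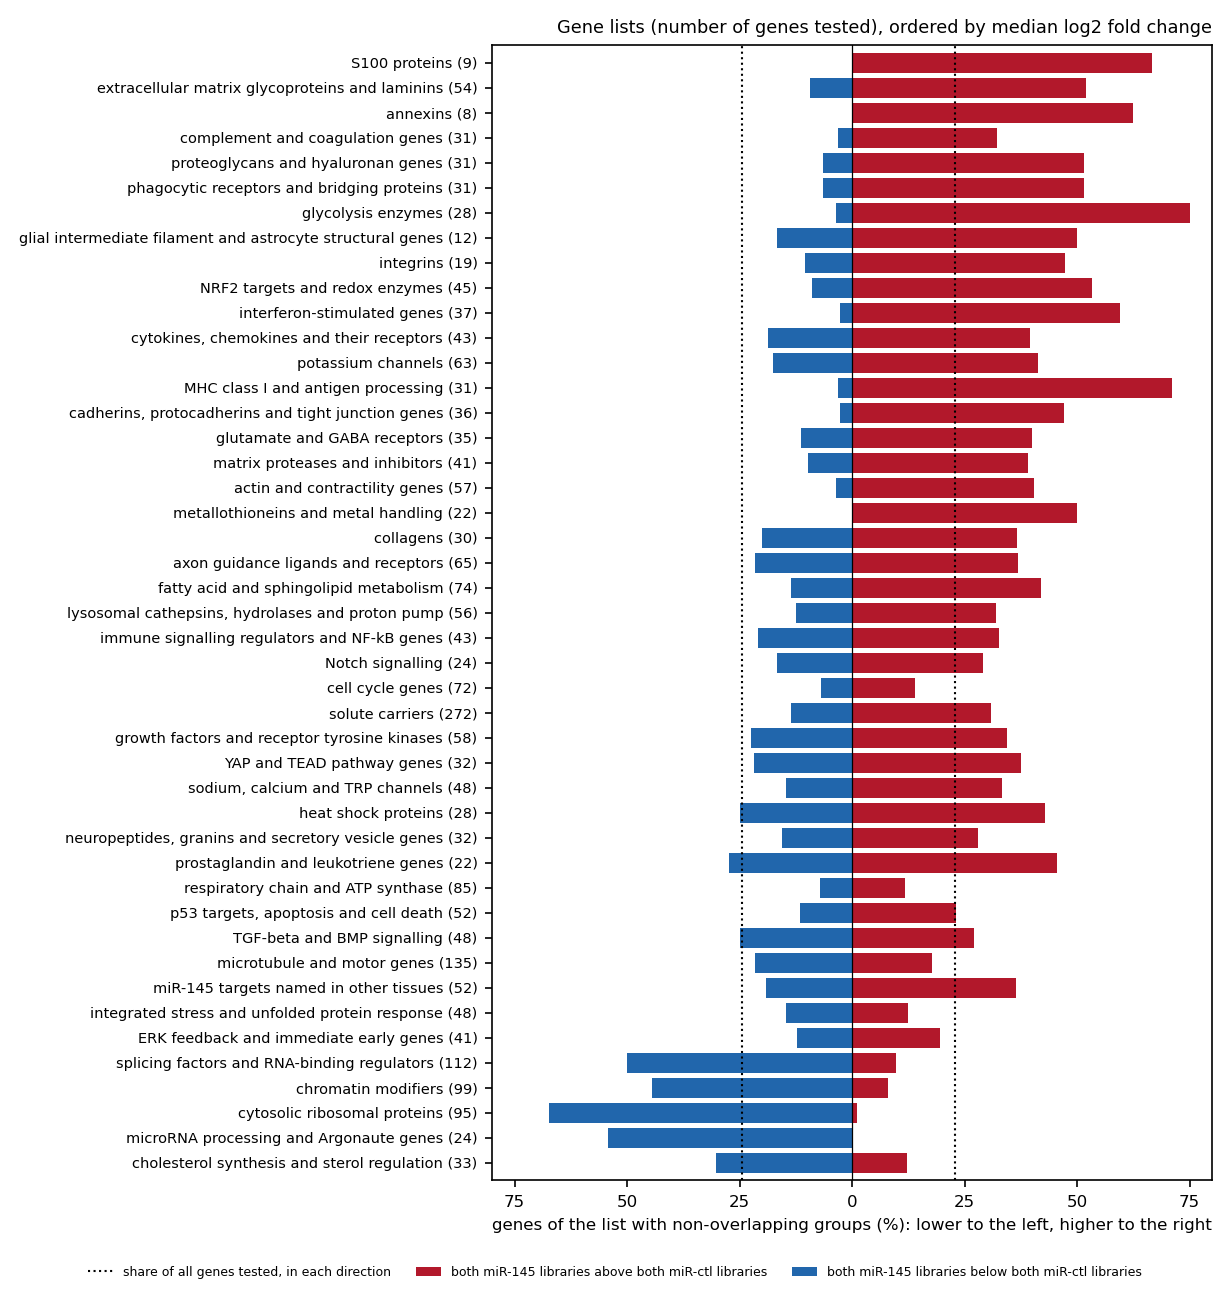
For each gene list shown, the share of its tested genes (in %) that was apart and higher (bars to the right) or apart and lower (bars to the left) with miR-145, ordered from top to bottom by median log2 fold change. Dotted lines mark the shares over all genes tested, 22.9% higher and 24.4% lower.

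The 15 lower genes of smallest p among genes apart had edgeR adjusted p-values of 0.158 to 0.165. They include Apeg3, Spag4 and Mmp9, which had few or no counts with miR-145. All 15 were chosen by p among genes apart in the same libraries. Calls among them by other fits, close replicates and separate groups are therefore no separate test. DESeq2 called each of them and the fit over 5 groups called 8, but over all genes DESeq2's lower calls went from 114 to 10 without replicate 1 of miR-ctl. Pnlip (ENSRNOG00000017725), known as the lipase of the pancreas, was at 80.6 and 74.5 CPM with miR-145 and at 157 and 154 CPM with miR-ctl, 2.01-fold lower by the ratio of means. Replicates were close and the groups did not overlap. Igf2, a growth factor of fetal tissue, was at 12.9 and 11.4 CPM against 44.7 and 26.9 CPM (log2 fold change of -1.55, standard error 0.26). Tdrd12, a protein of the piRNA pathway, was at 14.2 and 14.4 CPM against 36.4 and 28.0 CPM (log2 fold change of -1.17, standard error 0.17). In both the control libraries differed from each other more than the miR-145 libraries did. Pirb, an inhibitory receptor that binds MHC class I proteins, was at 1.06 and 1.24 CPM against 3.72 and 4.08 CPM. Gpr180, an orphan membrane protein, was at 210 and 177 CPM against 347 and 317 CPM (log2 fold change of -0.77, standard error 0.14). Bcor, a transcriptional corepressor, was at 35.0 and 35.2 CPM against 59.0 and 54.5 CPM (log2 fold change of -0.69, standard error 0.11).

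Rasgef1b, an exchange factor for small GTPases of the Ras family, was at 39.3 and 42.8 CPM with miR-145 and at 67.7 and 65.6 CPM with miR-ctl. Rassf10, a Ras association domain protein, was at 16.9 and 17.6 CPM against 27.5 and 29.6 CPM. Apip, an enzyme of methionine salvage, was at 29.9 and 27.1 CPM against 47.8 and 44.1 CPM. All 3 genes had close replicates and groups that did not overlap. Sspo, the large glycoprotein of Reissner's fibre, was at 9.11 and 8.29 CPM against 16.4 and 15.2 CPM. Their log2 fold changes lay between -0.68 and -0.85, and none of their groups overlapped. A pair of genes had 0 counts in both miR-145 libraries. Apeg3, an antisense RNA of the imprinted Peg3 locus, was at 3.87 and 1.41 CPM with miR-ctl (154 and 46 counts). Spag4, a protein of the nuclear envelope in sperm, was at 0.527 and 0.429 CPM with miR-ctl (21 and 14 counts). Both comparisons are uncertain, and no fold is given, since counts of exactly 0 also appear in another library of the series for each gene (replicate 1 of miR-145 with miR-219 for Apeg3, and replicate 2 of anti-miR-145 for Spag4), where the other replicate was at 2.22 CPM and 1.94 CPM. Ms4a7, a membrane protein of macrophages, was among the lower genes of largest change, at 0.316 and 0.986 CPM against 3.56 and 4.51 CPM (log2 fold change of -2.60, standard error 0.54).

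Cxcl1, a chemokine that draws neutrophils, was at 0.115 and 0.404 CPM with miR-145 and at 4.47 and 2.42 CPM with miR-ctl, and the log2 fold change was -3.68 (standard error 0.63). Mmp9, a secreted gelatinase, was at 0.0575 and 0.0253 CPM against 1.56 and 0.675 CPM. Its miR-145 libraries held 2 and 1 counts against 62 and 22, so few that no fold is given. Both were apart, and replicate 1 of miR-ctl was the highest library. Ccl20, a chemokine that draws lymphocytes and dendritic cells, was at 0.345 and 1.62 CPM with miR-145 and at 9.62 and 3.59 CPM with miR-ctl, and the log2 fold change of -2.73 was -4.24 without replicate 2 of miR-145. Lcn2, a lipocalin of reactive glia that binds bacterial iron carriers, was at 13.8 and 73.1 CPM against 396 and 156 CPM. Its libraries did not overlap but spread widely, its log2 fold change of -2.66 was -4.32 without replicate 2 of miR-145, and DESeq2 did not call it (adjusted p of 0.249).

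Ccl2, Ccl7, Birc3 and Ptgs2 are not among the genes named by p or by size, and they were chosen after their values were seen. Ccl2, which draws monocytes, was at 4.03 and 7.78 CPM with miR-145 and at 26.0 and 13.7 CPM with miR-ctl (log2 fold change of -1.74, standard error 0.43, DESeq2 adjusted p of 0.00363). Ccl7, a related chemokine, was at 1.50 and 3.03 CPM against 13.2 and 7.39 CPM (log2 fold change of -2.17, standard error 0.45). In both, replicate 1 of miR-ctl was the highest library and the groups did not overlap. Birc3, an inhibitor of apoptosis that NF-kB induces, was at 1.50 and 1.90 CPM against 7.28 and 3.74 CPM (log2 fold change of -1.69, standard error 0.40). Ptgs2, the inducible cyclooxygenase that makes prostaglandin precursors, was at 0.316 and 0.480 CPM against 2.46 and 1.01 CPM. DESeq2 called Birc3 and not Ptgs2, whose log2 fold change of -2.11 was -1.32 without replicate 1 of miR-ctl. The list of 43 cytokines, chemokines and receptors did not lean the same way as a whole: 17 were apart and higher and 8 apart and lower, DESeq2 called 5 higher and 4 lower, and the median of 0.34 was 0.07 without replicate 2 of miR-145. Cxcl14, a chemokine made by many epithelia and glia, was higher at 252 and 195 CPM against 105 and 104 CPM (log2 fold change of 1.10, standard error 0.15). Of 43 immune signalling and NF-kB genes, 14 were apart and higher and 9 apart and lower, DESeq2 called 1 higher and 0 lower, and the median of 0.13 was 0.00 without replicate 2 of miR-145.

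Of 37 interferon-stimulated genes, 22 were apart and higher and 1 was apart and lower, DESeq2 called 2 higher and 0 lower, and the median was 0.35, against -0.01 over all genes. Ddx58, a sensor of viral RNA, was at 17.0 and 18.2 CPM with miR-145 and at 10.1 and 10.3 CPM with miR-ctl (log2 fold change of 0.79, standard error 0.14). Parp14, an ADP-ribosyltransferase induced by interferon, was at 26.2 and 32.8 CPM against 17.3 and 19.0 CPM. Both were apart and called by DESeq2. Of 31 genes of MHC class I and antigen processing, 22 were apart and higher and 1 was apart and lower, DESeq2 called 1, and the median was 0.32. The call was Tapbpl, an editor of the peptides that MHC class I carries, at 14.1 and 13.7 CPM against 8.96 and 8.52 CPM.

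**Figure D4:**
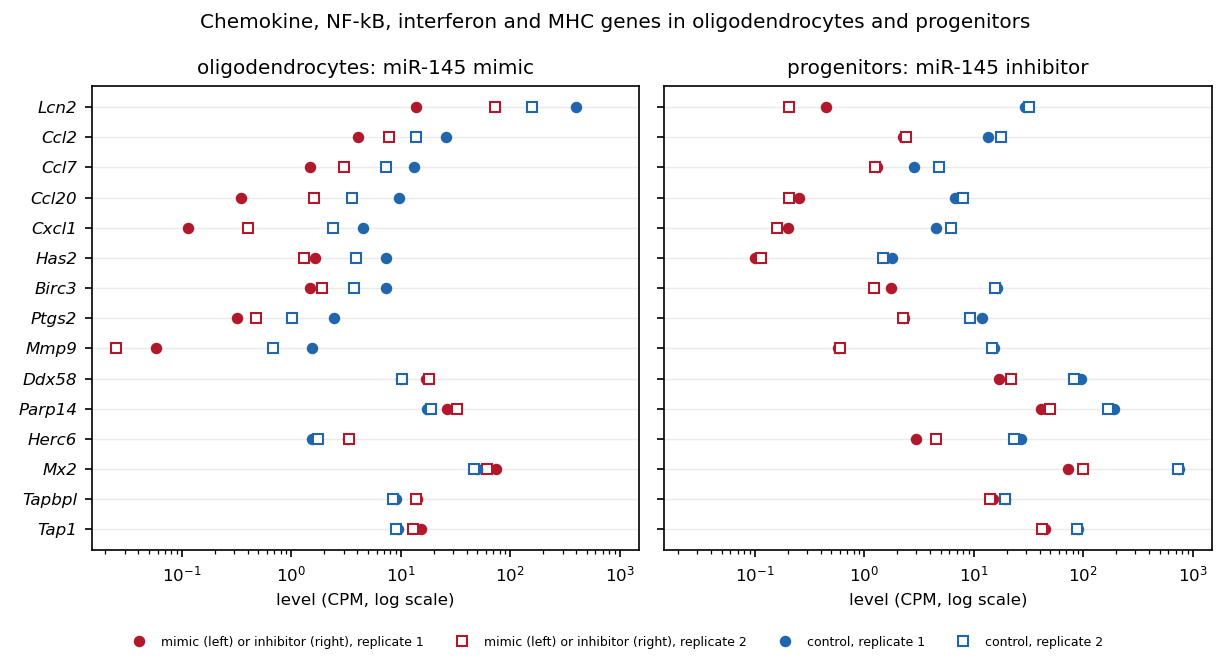
Level in CPM (log scale) of chemokine, NF-kB, interferon and MHC genes, at the left in OLs with the miR-145 mimic or its scrambled control and at the right in OPCs with the miR-145 inhibitor or its control, with filled circles for replicate 1 and open squares for replicate 2. Cxcl1 lies at 0.115 and 0.404 CPM with the mimic against 4.47 and 2.42 CPM, and interferon genes such as Ddx58 lie slightly above their controls at the left and below them at the right.

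Some large families had many members apart and lower by small amounts. Of 95 cytosolic ribosomal protein genes, 64 were apart and lower and 1 was apart and higher, and 88 had negative log2 fold changes, but the median was -0.18, or -0.27 without replicate 1 of miR-145 and -0.10 without replicate 2 of miR-145. The only DESeq2 call among them, Rps20, is carried by 3 gene IDs and is uncertain. Of 112 splicing and RNA-binding regulators, 56 were apart and lower and 11 apart and higher, with 1 DESeq2 call, on the higher side, and a median of -0.15 that was -0.10 without replicate 1 of miR-ctl. Among 99 chromatin modifiers 44 were apart and lower and 8 apart and higher, with a median of -0.15 that was -0.08 without replicate 1 of miR-145. Sirt2, a deacetylase abundant in OLs, was at 2050 and 2025 CPM with miR-145 and at 2933 and 2790 CPM with miR-ctl (log2 fold change of -0.48, standard error 0.14), and it was their DESeq2 call on the lower side. The call on the higher side was an ID of Smarcb1 at 0 counts with miR-ctl, but another ID of the same symbol did not differ, so its value is uncertain. The 24 genes of microRNA processing and Argonaute had 13 apart and lower and 0 apart and higher, with 0 DESeq2 calls and a median of -0.21 that was -0.11 without replicate 1 of miR-ctl. The signs of the medians of ribosomal, interferon, MHC and matrix genes were the same under each scaling of the libraries.

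Of 57 actin and contractility genes, 23 were apart and higher and 2 apart and lower, DESeq2 called 9 higher, and the median was 0.23. Vcl, the adhesion protein vinculin, was at 117 and 95.2 CPM with miR-145 and at 67.6 and 58.6 CPM with miR-ctl, with the groups apart. The 72 cell cycle genes had 10 apart and higher and 5 apart and lower, and their median of 0.13 was 0.38 without replicate 1 of miR-145, -0.27 without replicate 2 of miR-145, 0.38 without replicate 1 of miR-ctl and -0.13 without replicate 2 of miR-ctl. Aurkb, a mitotic kinase, was their single DESeq2 call, at 30.9 and 46.5 CPM against 15.7 and 13.1 CPM. Among 65 axon guidance genes 24 were apart and higher and 14 apart and lower, with 7 and 4 DESeq2 calls and a median of 0.19 that was 0.06 without replicate 2 of miR-145. Sema3c, a secreted semaphorin, was higher at 64.1 and 69.5 CPM against 37.6 and 39.1 CPM. Slit3, a secreted guidance ligand, was lower at 3.62 and 3.61 CPM against 7.21 and 7.94 CPM. Both had close replicates.

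Of 52 genes named as miR-145 targets in other tissues, 19 were apart and higher and 10 apart and lower, DESeq2 called 2, both higher (Sox9 and Add3), and the median was -0.03, with 0.06 without replicate 1 of miR-145, -0.10 without replicate 2 of miR-145 and 0.08 without replicate 1 of miR-ctl. Of the 52 genes of p53, apoptosis and cell death, 12 were apart and higher (23.1%, beside 22.9% over all genes). Another 6 were apart and lower (11.5%, beside 24.4%), and Birc3 was the only DESeq2 call. For 48 genes of the integrated stress and unfolded protein responses the counts were 6 (12.5%) and 7 (14.6%), and DESeq2 called 3 higher and 1 lower. Among those called higher was the serine synthesis enzyme Psat1, at 277 and 232 CPM against 176 and 168 CPM. Slc7a3, a transporter of basic amino acids, was the call on the lower side at 10.0 and 6.92 CPM against 35.4 and 13.2 CPM, and its log2 fold change of -1.52 was -0.63 without replicate 1 of miR-ctl. The 48 genes of TGF-beta and BMP signalling had 13 (27.1%) apart and higher and 12 (25.0%) apart and lower, near the shares over all genes. The 41 ERK feedback and immediate early genes had 8 (19.5%) and 5 (12.2%), and the 135 microtubule and motor genes 24 (17.8%) and 29 (21.5%). DESeq2 called 2 higher and 1 lower, 0, and 5 higher and 1 lower of these. The lists left out of the ranking were counted too. Of 71 myelin and OL differentiation genes, 31 were apart and lower and 9 apart and higher, with 10 DESeq2 calls lower and 3 higher and a median of -0.24 that was -0.13 without replicate 1 of miR-145 and -0.41 without replicate 2 of miR-145. Of 69 Wnt genes, 23 (33.3%) were apart and higher and 17 (24.6%, beside 24.4% over all genes) apart and lower. DESeq2 called 6 higher and 1 lower.

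The named genes were also read in OPCs, whose libraries are separate from those of the OL groups. Cells there received 30 nM of an inhibitor called anti-miR-145 for 24 h, or as much anti-miR-ctl, with 2 libraries for each. There edgeR called 1874 of 15496 genes (12.1%) higher with the inhibitor and 2474 (16%) lower. The total of 4348 moved with the libraries: it was 7130 without replicate 2 of anti-miR-145, 5314 without replicate 1 of anti-miR-145, 2424 without replicate 1 of anti-miR-ctl and 2530 without replicate 2 of anti-miR-ctl. Of the 15 higher genes 14 were tested, with 3 called higher and 4 lower, and of the 15 lower genes 2 were called higher and 6 lower. Hmox1 fell with the inhibitor, from 428 and 386 CPM to 150 and 100 CPM (log2 fold change of -1.71, edgeR adjusted p of 8.04e-04). Gabra2 fell from 22.9 and 18.4 CPM to 4.52 and 7.24 CPM (log2 fold change of -1.83). Mmp14 fell from 4.5 and 3.4 CPM to 2.0 and 2.1 CPM, and Dmd from 3.0 and 3.2 CPM to 1.1 and 1.5 CPM. Both lay far below their levels in OLs. These 4 genes were thus higher with the mimic in OLs and lower with the inhibitor in OPCs. The 3 called higher with the inhibitor, Ssc5d, Mertk and Ndrg4, were higher with both agents, and of them Ndrg4 rose from 65.3 and 69.2 CPM to 101 and 96.2 CPM (log2 fold change of 0.54, edgeR adjusted p of 0.00408).

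Other genes were lower with both agents. Cxcl1 fell in OPCs from 4.55 and 6.21 CPM to 0.201 and 0.161 CPM (log2 fold change of -4.89, edgeR adjusted p of 1.02e-04). Mmp9 fell from 15.3 and 14.7 CPM to 0.578 and 0.598 CPM (log2 fold change of -4.68). In both genes the OPC groups were far apart with close replicates. Ccl20, Lcn2, Ccl2, Has2, Birc3, Rasgef1b, Bcor, Pirb and Pnlip fell there as well. Col16a1 and Igf2 were the 2 called higher there, Igf2 rising from 0.323 and 0.328 CPM to 1.71 and 1.93 CPM (log2 fold change of 2.46, edgeR adjusted p of 0.00119). All 37 interferon-stimulated genes tested were called lower in OPCs, with a median of -2.25. Of 31 MHC genes 26 were called lower there, and of 72 cell cycle genes 69. The difference between the OL and OPC comparisons was not tested.

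OLs that received miR-145 together with miR-219 share their controls with the comparison above, so their values are given side by side only. Megf10 was at 137 and 97.7 CPM in them, beside 149 and 141 CPM with miR-145 alone. Pnlip was at 83.3 and 98.0 CPM, beside 80.6 and 74.5 CPM. Cxcl1 was at 0.0737 and 0.225 CPM, beside 0.115 and 0.404 CPM. Replicate 2 was the lower of these libraries for Megf10 and the higher for Cxcl1. Other genes lay close to miR-ctl in 1 or both libraries. Hmox1 was at 230 and 146 CPM, with miR-ctl at 127 and 136 CPM. Mertk was at 74.9 and 44.6 CPM, with miR-ctl at 33.8 and 36.6 CPM. Spag4, at 0 with miR-145 alone, was at 0.589 and 0.562 CPM, above both miR-ctl libraries at 0.527 and 0.429 CPM. For Hmox1 and Mertk replicate 2 was the library close to the controls. Col3a1 was at 1.30 and 2.61 CPM, where replicate 2 of miR-145 alone had 29.9 CPM. Their astrocyte markers summed to 20877 and 15192 CPM, above both miR-ctl libraries.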

How the data were processed

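RNA sequencing libraries of rat OLs and OPCs were read from a table that the authors deposited, whose values are estimated counts made with Salmon 0.12.0 and tximport. Counts were rounded. Of 23487 genes 4030 were at 0 in every library. A gene needed 5 counts or more in 2 or more of the 4 libraries, and edgeR 4.0.16 (TMM, quasi-likelihood F test) was run on those genes in R 4.3.3, with p-values adjusted over all genes tested, and totals over the 10 libraries ran from 33505668 to 42684176. DESeq2 1.42.0, other scalings, filters, a fit of all 5 groups, a replicate term and fits without each library were alternatives. Standard errors are the size of edgeR's log2 fold change divided by the square root of its F statistic. Tables were made with pandas 2.3.3 and plots with matplotlib 3.10.9. Named genes are the 15 of smallest p in each direction among genes apart, and the 5 of largest change. Those 5 also needed an unadjusted edgeR p under 0.05 and 1 CPM or more in both libraries of the higher group. Other genes given with values were list members, mostly those of smallest p. Lists share members, so the counts of different lists are not separate results. Genes without a usable symbol, with several IDs, or on the myelin and Wnt lists were left out of the ranking. The samples and lists were chosen with earlier results of these data known. The authors' own test results were not used. Some results are not reported here.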

Additional observations from a re-analysis of the deposited data

How the results depend on the processing

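With 2 libraries in each group, the number of genes called in OLs depended on the test. edgeR called 0 and DESeq2 called 649, a single fit of all 5 groups called 79, and a term for the replicate number called 2272, where the labels do not say that replicate numbers mark a shared culture. The replicate differences of the 2 groups had a correlation of 0.404 across 15461 genes. edgeR called 0 under the other settings, leave-one-out fits included. DESeq2 without each library in turn, an alternative chosen after seeing the data, called 194 to 334 genes, and there the lone library of a group is assumed to vary like the other group. In OPCs a fit of all 5 groups called 2657 genes, and leave-one-out fits called 2424 to 7130. Of 513 list medians under an alternative, 21 took the other sign, in 15 lists. Seed sites were not run, since the reference held no transcripts. Enriched cultures hold several cell types, and their share of any difference was not tested.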
